A study of Mus musculus with 20 samples.

Results

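The genes described here encode the machinery of motile cilia, the beating cilia of ependymal cells, and were taken as a list of 38 mouse genes: Foxj1, the hub genes Spef2 and Cdhr3, axonemal dynein heavy chains, and structural proteins of the axoneme. A gene counted as measured when the array had a row whose annotation gave exactly that symbol, which held for 34 of the 38 genes among 22180 genes in all. Dnah12 and Ak9 had no such row, and the rows of Ccdc39 and Cfap54 were shared with another gene symbol (Ttc14 and Gm872). For Dnah2, Tekt2, Hydin, Spag6 and Spag17, which had more than 1 row, the row with the highest interquartile range was kept. Spag6 is also an older name of the paralog Spag6l, so its value could belong to either copy.

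Ependymal cells form the ciliated epithelium that lines the ventricles of the brain, including the lateral ventricle that borders the striatum, and their cilia move cerebrospinal fluid along the wall. The transcription factor Foxj1 switches on the motile cilia programme, and factors of the RFX family act with it at many of the same genes. In the axoneme, dynein arms attached to a ring of microtubule doublets generate the beat, and radial spokes pass signals between the central apparatus and the arms.

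The arrays (Affymetrix Mouse Gene 2.0 ST) measured RNA of the microdissected dorsal striatum, 1 array per mouse, in 4 groups of 5 mice. ASO-NSC and ASO-Veh mice carry human wild-type α-synuclein as a transgene under the PDGF-β promoter (line D), and WT-NSC and WT-Veh mice are their wild-type littermates. NSC mice had GFP-expressing mouse neural stem cells injected into the striatum and Veh mice had saline. All were 12 months old on a C57B6/J background. The stem cells came from hippocampus and cortex of newborn syngeneic mice, and RNA of grafted and host cells was read together. How much ventricular wall each dissected piece held was not measured. The values are log2 intensities after RMA, on which a difference of 1 is a 2-fold change, and levels of different genes cannot be set against each other because probes differ in brightness.

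The spiny neuron markers Drd1 and Drd2 lay between 9.19 and 10.57 and between 10.33 and 11.62 on the log2 scale over the 20 arrays, and RNA integrity numbers between 9.2 and 9.7. ASO-NSC mouse 59, which the study left out as an outlier, stood apart here too, with a spiny neuron list (13 genes) at a median of -0.74 against the mean of the mice, so tests used the other 19 arrays and values are shown for all 20. The sex genes contradicted the sex on the label for 5 arrays (ASO-Veh mice 45 and 47, WT-NSC mouse 54, WT-Veh mice 61 and 62). Whether a wrong sex entry or an exchange of mice or arrays lies behind this was not tested, so the group of these arrays is known from their labels alone. Saline was given to litters 1, 3 and 5 and cells to litters 3, 4 and 6. Litter and treatment therefore cannot be told apart outside litter 3, which held 1 NSC array. In litter 3 that array is WT and the Veh arrays are ASO, so treatment and genotype differ together.

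No motile cilia gene passed the test between any of the groups, and the main feature of these genes was the difference between single mice. Each gene's level was expressed relative to its mean over the 20 mice, and the median over the 34 genes was taken per mouse. That median was 0.30 in WT-Veh mouse 64 and -0.35 in WT-Veh mouse 62, the highest and the lowest of all 20 mice, and both belong to 1 group. Mouse 64 was the highest of the 20 mice for 18 of the 34 genes, beside 6.15 percent of all genes, and mouse 62 the lowest for 18 of the 34, beside 8.66 percent of all genes. Between these mice, 32 of the 34 genes were higher in mouse 64, by a median of 0.72, and 49.5 percent of all genes were. Tmem212 differed by 1.65, Cdhr3, a cadherin of ciliated cells, by 1.63, Ak7, an adenylate kinase of the axoneme, by 1.40 and Cfap44 by 1.30. The SD over the 5 mice was largest in the WT-Veh group for 26 of the 34 genes, against 33.9 percent of all genes. Mouse 62 is among the arrays of contradicted sex, and without it that count was 18 of 34, beside 31.6 percent of all genes. Without all 5 such arrays it was 21 of 34, beside 34.5 percent, and mouse 64 was still the highest for 18 of 34 genes, beside 7.77 percent. These comparisons were added after the data had been seen. Mice 64 and 62 were picked by the median of these same 34 genes. Their counts are therefore partly set by that choice, which did not act on the shares of all genes.

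**Figure D1:**
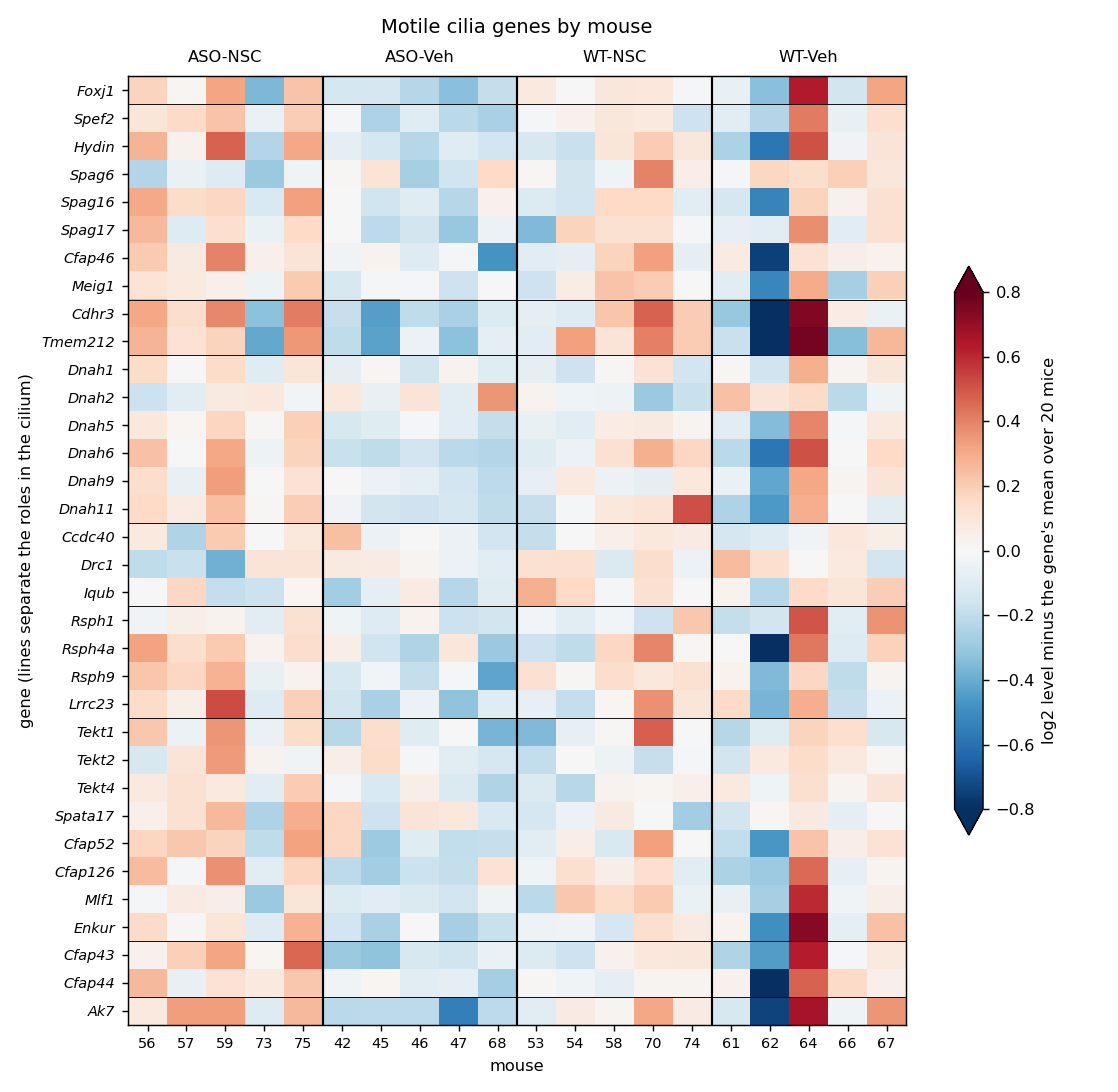
Log2 level of each of the 34 measured genes (down the page, in blocks by role from the regulator Foxj1 to the adenylate kinase Ak7) in each of 20 mice (across, by group), as the difference from the gene's mean over the mice. WT-Veh mice 64 and 62 form the red and the blue column at the right, and the ASO-Veh block is mostly pale blue, with medians between -0.16 and -0.05.

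The other groups spread less. The median over the 34 genes was 0.15, 0.06, 0.21, -0.07 and 0.18 in ASO-NSC mice 56, 57, 59, 73 and 75, against -0.05, -0.13, -0.10, -0.16 and -0.15 in ASO-Veh mice 42, 45, 46, 47 and 68. It was -0.08, -0.03, 0.04, 0.13 and 0.02 in WT-NSC mice 53, 54, 58, 70 and 74, against -0.09, -0.35, 0.30, -0.01 and 0.09 in WT-Veh mice 61, 62, 64, 66 and 67. All 5 ASO-Veh mice were therefore below the mean, 4 of 5 ASO-NSC mice were above it, and the WT-Veh mice enclosed every other mouse. In this dissected tissue, fewer ependymal cells and less cilia RNA per cell cannot be told apart. For 10 genes neither mouse 64 was the highest nor mouse 62 the lowest: Dnah2, Ccdc40, Rsph9, Tekt1, Tekt2, Tekt4, Spag6, Spata17, Drc1 and Iqub.

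The comparison of ASO-NSC with ASO-Veh mice asks whether stem cell grafts moved these genes in the α-synuclein model. With limma and Benjamini-Hochberg adjustment over 22180 genes, 0 of the 34 genes passed an adjusted p of 0.05, where 2 genes in all (0.00902 percent) did. At an unadjusted p under 0.05 there were 5 of 34 (14.7 percent), all higher in ASO-NSC mice, beside 8.88 percent of all genes. The log2 difference was positive for 29 of 34 genes with a median of 0.22, beside 51.2 percent of all genes and a median of 0.00. The study built a co-expression module on these arrays with Cdhr3, Spef2 and Foxj1 as hub genes, so the direction of this list is not independent evidence. From tests of the module as a gene set, the study reported it as higher after NSC in both genotypes. It also reported the module as lower in ASO than in WT mice. No list was tested as a set here, and the module and this list are not the same genes.

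Foxj1, the regulator of the programme, had log2 levels of 7.19, 7.02, 7.32, 6.65 and 7.24 in ASO-NSC mice 56, 57, 59, 73 and 75, against 6.87, 6.87, 6.78, 6.67 and 6.82 in ASO-Veh mice. Of the ASO-NSC mice 4 lay above all ASO-Veh mice and mouse 73 lay below all of them. The fitted difference was 0.22 (95% interval -0.10 to 0.53, adjusted p = 0.663, limma). Among the WT mice Foxj1 was at 7.08, 7.01, 7.10, 7.09 and 6.99 after NSC, against 6.95, 6.67, 7.64, 6.86 and 7.32 after vehicle. The WT-NSC values lay close together inside the range of the WT-Veh values.

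Among the heavy chains, the motor subunits of the arms, 5 of 6 had a positive difference in ASO mice, with a median of 0.16. Dnah6, an inner arm chain, was at 6.74, 6.50, 6.81, 6.46 and 6.68 in ASO-NSC mice, against 6.32, 6.30, 6.35, 6.28 and 6.27 in ASO-Veh mice. Dnah11, an outer arm chain, was at 6.40, 6.30, 6.48, 6.25 and 6.43 in ASO-NSC mice, against 6.21, 6.09, 6.07, 6.10 and 6.03 in ASO-Veh mice. For both genes, every ASO-NSC mouse was above every ASO-Veh mouse, and this also held for Dnah5, whose lowest ASO-NSC level was 6.25 and highest ASO-Veh level 6.23. The differences were 0.29 for Dnah6, 0.25 for Dnah11 and 0.18 for Dnah5, with adjusted p of 0.577, 0.584 and 0.604. Dnah9, another outer arm chain, overlapped, with 6.89, 6.69, 7.08, 6.75 and 6.87 in ASO-NSC mice and 6.75, 6.70, 6.67, 6.59 and 6.54 in ASO-Veh mice. Dnah2, an inner arm chain, had a difference of -0.13, with 5.69, 5.78, 5.93, 5.95 and 5.84 in ASO-NSC mice and 5.95, 5.80, 5.96, 5.78 and 6.21 in ASO-Veh mice.

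The radial spoke genes Rsph1, Rsph4a, Rsph9 and Lrrc23 all had positive differences, between 0.10 and 0.28. Rsph9, a protein of the spoke head, was at 7.73, 7.66, 7.78, 7.44 and 7.53 in ASO-NSC mice, against 7.37, 7.48, 7.31, 7.49 and 7.08 in ASO-Veh mice. The groups overlapped through mouse 73 alone, and the difference was 0.24 (95% interval 0.03 to 0.44, adjusted p = 0.52). Ccdc40, which sets the repeat length of the axoneme together with Ccdc39, Drc1 of the nexin-dynein regulatory complex and Iqub gave -0.01, -0.05 and 0.12.

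In the central apparatus 6 of 7 genes had positive differences. Spef2, a protein of the central pair, had the largest moderated statistic of the 34 genes, with 6.46, 6.52, 6.59, 6.31 and 6.56 in ASO-NSC mice and 6.35, 6.12, 6.26, 6.15 and 6.10 in ASO-Veh mice. Only ASO-NSC mouse 73 was below an ASO-Veh mouse, mouse 42. The difference was 0.26 (95% interval 0.04 to 0.48), a 1.2-fold level (adjusted p = 0.507). Cfap46 separated the groups, with 6.86 as the lowest ASO-NSC and 6.85 as the highest ASO-Veh level. Spag6 went the other way, with a difference of -0.12. The remaining members, Hydin, Spag16, Spag17 and Meig1, lay between 0.15 and 0.26.

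Cfap43, which tethers an inner arm motor head in the ciliate Tetrahymena, was at 5.83, 5.98, 6.11, 5.80 and 6.25 in ASO-NSC mice, against 5.49, 5.46, 5.66, 5.63 and 5.73 in ASO-Veh mice, without overlap. Ak7 was at 7.18, 7.44, 7.44, 6.999 and 7.36 in ASO-NSC mice, against 6.89, 6.89, 6.90, 6.56 and 6.89 in ASO-Veh mice, also without overlap. The differences were 0.37 (95% interval 0.06 to 0.69) for Cfap43 and 0.42 (0.02 to 0.82) for Ak7, the largest of the 34 genes, at adjusted p of 0.509 and 0.547. Cdhr3 was at 7.87, 7.70, 7.94, 7.23 and 7.97 in ASO-NSC mice, against 7.38, 7.12, 7.36, 7.30 and 7.45 in ASO-Veh mice. Again 4 of 5 ASO-NSC mice exceeded all ASO-Veh mice and mouse 73 did not, and the difference of 0.38 had a 95% interval of -0.09 to 0.85. Tekt4, a tektin filament protein of the doublets, was at 5.70, 5.75, 5.70, 5.54 and 5.83 in ASO-NSC mice and 5.61, 5.50, 5.67, 5.51 and 5.38 in ASO-Veh mice, a difference of 0.17 (adjusted p = 0.537). The doublet proteins Tekt1, Cfap52, Cfap126 and Enkur lay between 0.17 and 0.26, Spata17 and Mlf1 were at 0.04 and 0.05, and Tekt2 was at -0.0036. Enkur and Mlf1 were dim, with median levels of 4.87 and 4.53 over all mice. They were the only 2 of the 34 genes under a level of 5, beside 21.0 percent of all genes.

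**Figure D2:**
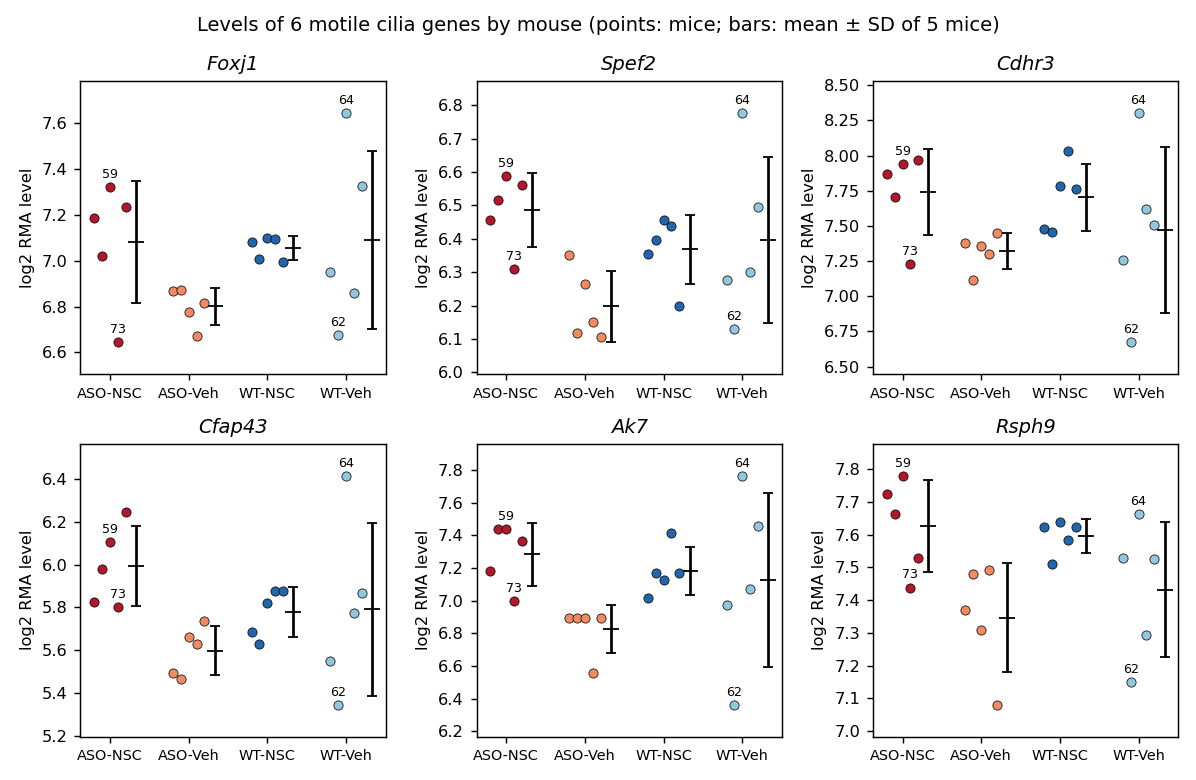
Log2 level of Foxj1, Spef2, Cdhr3, Cfap43, Ak7 and Rsph9 in each mouse (points, 5 per group), with the mean ± SD of each group (bars) and mice 59, 73, 62 and 64 numbered. ASO-NSC mice other than mouse 73 stand above ASO-Veh mice for Foxj1, Cdhr3 and Spef2, while WT-Veh mice 62 and 64 reach from 6.36 to 7.76 for Ak7.

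Over all 20 arrays, 6 of 34 genes (17.6 percent) had every ASO-NSC mouse above every ASO-Veh mouse, beside 2.51 percent of all genes, and 0 had every ASO-NSC mouse below, beside 0.658 percent of all genes. These were Dnah5, Dnah6, Dnah11, Cfap43, Cfap46 and Ak7. The 34 genes were read in the same pieces of tissue and are not independent of each other, so this share is a description. Without ASO-NSC mouse 73 the count was 20 of 34, beside 5.28 percent of all genes. Without any other mouse the count was 6 to 8. The share of all genes then lay between 2.93 percent (without ASO-NSC mouse 57) and 5.09 percent (without ASO-Veh mouse 47). Without the arrays of contradicted sex it was 8 of 34, beside 6.8 percent of all genes. The 5 genes at an unadjusted p under 0.05 became 1 without ASO-NSC mouse 75, beside 7.78 percent of all genes in the same fit. They became 2 without ASO-NSC mouse 56, ASO-NSC mouse 57 or ASO-Veh mouse 45 (7.56, 5.75 and 7.13 percent of all genes), and 3 without ASO-Veh mouse 47 or 68 (12.6 and 7.69 percent). They became 13 without ASO-NSC mouse 73 or WT-Veh mouse 64 (10.2 and 9.33 percent of all genes), and 12 without WT-Veh mouse 62 (9.55 percent), WT-Veh mice entering through the spread shared by all groups. With all 20 arrays they were 11, beside 12.2 percent of all genes, and 0 genes passed the adjusted threshold in any of these fits.

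In wild-type mice these genes had no common direction after grafting. The WT-NSC against WT-Veh comparison called 0 of the 34 genes, where limma called 96 genes in all (0.433 percent). At an unadjusted p under 0.05 there were also 0 of 34, beside 13.5 percent of all genes. The median log2 difference was 0.02, with 19 of 34 genes positive, beside 50.4 percent of all genes. No cilia gene had all WT-NSC mice above all WT-Veh mice, beside 1.24 percent of all genes, or all below, beside 1.03 percent. The count at an unadjusted p under 0.05 was 4 without WT-Veh mouse 64, beside 14.8 percent of all genes, and 0 or 1 without any other mouse. The lowest adjusted p of a motile cilia gene was 0.413, for Rsph9.

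Rsph9 was at 7.62, 7.51, 7.64, 7.58 and 7.62 in WT-NSC mice, against 7.53, 7.15, 7.66, 7.29 and 7.52 in WT-Veh mice, a difference of 0.18. Dnah11 was at 6.05, 6.22, 6.32, 6.35 and 6.75 in WT-NSC mice, against 5.99, 5.78, 6.53, 6.24 and 6.15 in WT-Veh mice, a difference of 0.19. In both genes the groups overlapped. Dnah2 was at 5.89, 5.83, 5.82, 5.57 and 5.68 in WT-NSC mice, against 6.09, 5.96, 6.02, 5.64 and 5.82 in WT-Veh mice, with a difference of -0.14. Tekt2, a tektin, was at 5.62, 5.81, 5.78, 5.63 and 5.79 in WT-NSC mice, against 5.67, 5.89, 5.96, 5.89 and 5.82 in WT-Veh mice, and Tekt4 was at 5.51, 5.40, 5.65, 5.64 and 5.67 in WT-NSC mice, against 5.70, 5.59, 5.75, 5.65 and 5.72 in WT-Veh mice. Both tektins had a difference of -0.11. Spef2 was at 6.36, 6.40, 6.46, 6.44 and 6.20 in WT-NSC mice, against 6.28, 6.13, 6.78, 6.30 and 6.50 in WT-Veh mice, a difference of -0.02 (95% interval -0.23 to 0.19). Cdhr3 was at 7.48, 7.46, 7.78, 8.03 and 7.76 in WT-NSC mice, against 7.25, 6.67, 8.30, 7.62 and 7.51 in WT-Veh mice, a difference of 0.22 (95% interval -0.23 to 0.67). For Foxj1, Spef2 and Cdhr3, WT-Veh mouse 64 was above all WT-NSC mice and WT-Veh mouse 62 below all of them.

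The sign of the wild-type median turned on single mice. It was 0.11 without WT-Veh mouse 64, -0.06 without WT-Veh mouse 62 and 0.01 without both. It was also 0.06 without WT-NSC mouse 53, 0.0042 without WT-Veh mouse 61, -0.0031 without WT-NSC mouse 70, between 0.03 and 0.04 without WT-NSC mouse 74, WT-Veh mouse 66 or WT-Veh mouse 67, and -0.09 without the 5 arrays of contradicted sex. The ASO median stayed between 0.16 and 0.25 whichever mouse was left out.

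**Figure D3:**
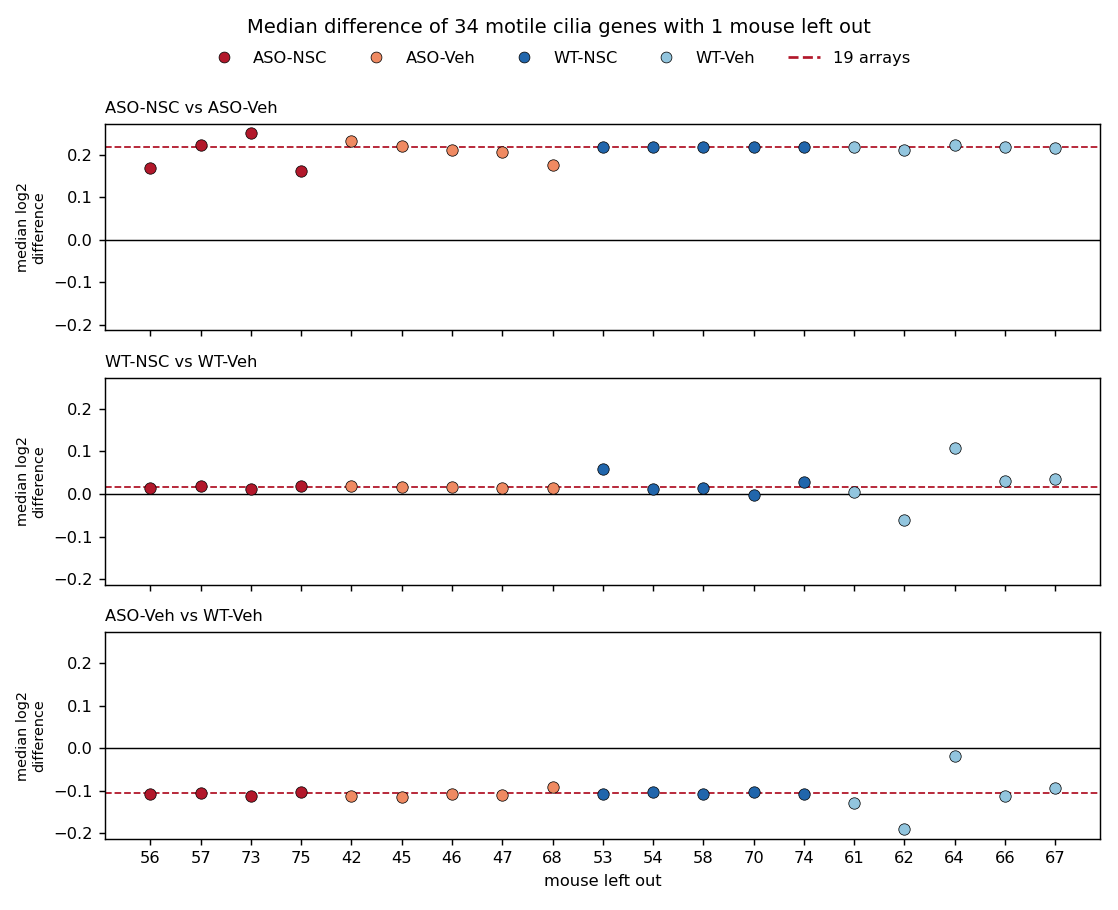
Median log2 difference of the 34 genes (vertical axis) in 3 comparisons when the mouse on the horizontal axis was left out (points, coloured by its group), with the value of the 19 arrays as a dashed line. Leaving out WT-Veh mouse 62 or 64 moved the comparisons that use WT-Veh mice to -0.06 or 0.11 (WT-NSC against WT-Veh) and to -0.19 or -0.02 (ASO-Veh against WT-Veh).

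Averaged over the genotypes, NSC against Veh mice gave 0 called genes of 34, beside 1.15 percent of all genes, and 2 of 34 (5.88 percent) at an unadjusted p under 0.05, Rsph9 and Dnah11, beside 18.7 percent of all genes. Both shares were below those of all genes. Rsph9 had a difference of 0.21 ± 0.07 (SE) and the lowest adjusted p of any motile cilia gene in any comparison, 0.121. Dnah11 had 0.22 ± 0.09 (adjusted p = 0.195), Dnah6 0.20 ± 0.10, Cdhr3 0.30 ± 0.15 and Dnah2 -0.14 ± 0.07. The Dnah6 levels in the wild-type mice were 6.40, 6.45, 6.62, 6.78 and 6.67 after NSC, against 6.28, 5.93, 7.01, 6.50 and 6.66 after vehicle. The median over the 34 genes was 0.11. The 2 genes at an unadjusted p under 0.05 became 16 without WT-Veh mouse 64, beside 20.8 percent of all genes in the same fit, and 8 without ASO-NSC mouse 73, beside 20.02 percent. They became 4 without WT-NSC mouse 53 or WT-Veh mouse 67, beside 19.6 and 25.01 percent of all genes, and 2 or 3 without any other mouse.

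The difference between the genotypes in the NSC effect was tested directly as an interaction. It called 0 of 34 genes and 0 genes in all (0 percent), with 1 of 34 genes at an unadjusted p under 0.05, beside 3.64 percent of all genes. That gene was Tekt4, with an interaction of 0.28 (95% interval 0.06 to 0.49, adjusted p = 1). All 5 ASO-NSC mice were above the ASO-Veh mean and all 5 WT-NSC mice below the WT-Veh mean for Tekt4. This pattern or its reverse was looked for in each of the 34 genes, and its share over all genes was not counted. With 0 genes called, no gene's effect was shown to differ between the genotypes. Without WT-Veh mouse 62 the count at an unadjusted p under 0.05 was 10, beside 4.67 percent of all genes in that fit. Without ASO-NSC mouse 73, ASO-Veh mouse 42 and ASO-NSC mouse 75 it was 3, 2 and 0, beside 3.22, 3.84 and 3.81 percent of all genes. The interaction was 0.24 for Foxj1 (95% interval -0.20 to 0.68), 0.28 for Spef2 (-0.02 to 0.58) and 0.16 for Cdhr3 (-0.49 to 0.82).

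**Figure D4:**
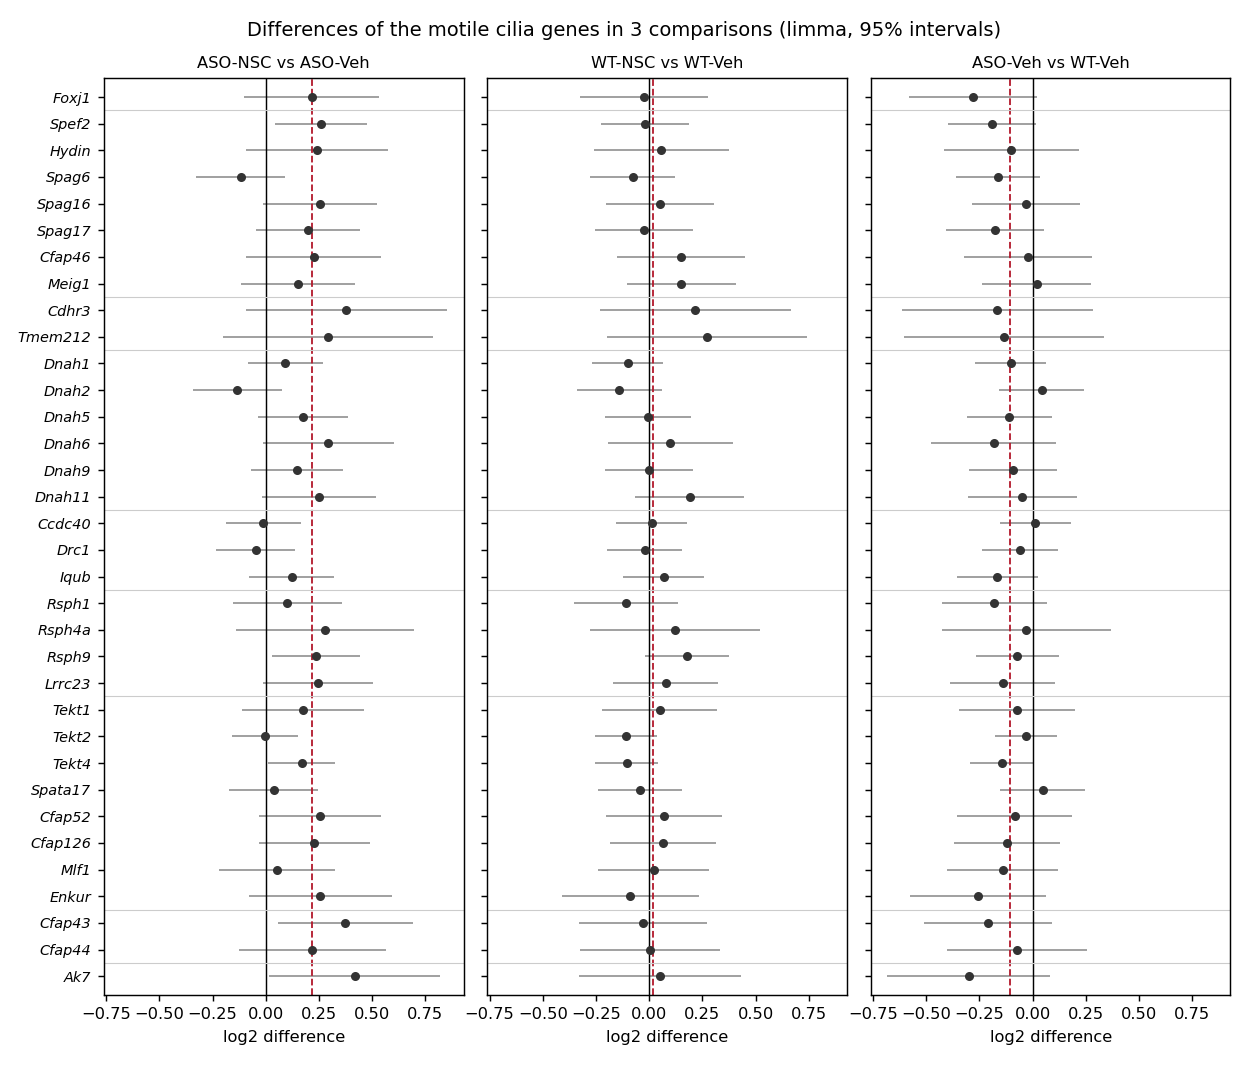
Log2 difference of each of the 34 genes (points) with its 95% interval (limma, bars) in ASO-NSC against ASO-Veh, WT-NSC against WT-Veh and ASO-Veh against WT-Veh mice, with the median of the genes as a dashed line. The medians are 0.22, 0.02 and -0.11, and no gene passed the adjusted threshold.

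The transgene alone was compared in vehicle mice. ASO-Veh against WT-Veh called 0 of 34 genes and 0 genes in all (0 percent), with 0 of 34 at an unadjusted p under 0.05, beside 4.81 percent of all genes. This comparison shares its ASO-Veh mice with the first comparison, so they are not independent. The median difference was -0.11, with 4 of 34 genes positive (46.2 percent of all genes), and it was -0.02 without WT-Veh mouse 64 and -0.19 without WT-Veh mouse 62. The count at an unadjusted p under 0.05 was 11 without WT-Veh mouse 62, beside 5.41 percent of all genes in that fit, and 0 to 2 without any other mouse. Foxj1 had the difference -0.28 (95% interval -0.58 to 0.02), Tekt4 -0.15, Spef2 -0.19, Iqub -0.17 and Spag6 -0.16, all at an adjusted p of 0.998. The ASO-Veh values of Foxj1 lay between those of WT-Veh mice 62 and 64, except that of mouse 47, which at 6.672 was just below the 6.675 of mouse 62. Iqub was at 7.11, 7.31, 7.46, 7.16 and 7.29 in ASO-Veh mice, against 7.42, 7.16, 7.55, 7.49 and 7.59 in WT-Veh mice. Spag6 was at 5.26, 5.37, 4.99, 5.10 and 5.42 in ASO-Veh mice, against 5.24, 5.42, 5.40, 5.45 and 5.35 in WT-Veh mice. The groups overlapped for both.

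After grafting, ASO-NSC against WT-NSC mice called 0 of 34 genes, beside 0.00451 percent of all genes, and 0 of 34 at an unadjusted p under 0.05, beside 3.05 percent. That count was 3 without ASO-NSC mouse 73, beside 3.22 percent of all genes, and 0 or 1 without any other mouse. The median difference was 0.05, with 25 of 34 genes positive, beside 48.5 percent of all genes. The median moved to 0.02 without ASO-NSC mouse 56, 0.01 without ASO-NSC mouse 75 and 0.03 without WT-NSC mouse 53. It moved to 0.09 without ASO-NSC mouse 73 and 0.08 without WT-NSC mouse 70. Spag6, a central pair protein, was at 5.02, 5.20, 5.15, 4.96 and 5.22 in ASO-NSC mice, against 5.27, 5.11, 5.22, 5.65 and 5.31 in WT-NSC mice, a difference of -0.20. Spag16, also of the central apparatus, was at 6.17, 6.01, 6.03, 5.74 and 6.20 in ASO-NSC mice, against 5.76, 5.72, 6.03, 6.02 and 5.77 in WT-NSC mice, a difference of 0.18. Cfap43 and Tekt4 had 0.19 and 0.13. Spata17 was at 5.46, 5.54, 5.68, 5.17 and 5.71 in ASO-NSC mice, against 5.28, 5.37, 5.49, 5.42 and 5.14 in WT-NSC mice, a difference of 0.13.

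Within single litters the genotype differences took either sign. In litter 1, the 2 ASO-Veh mice exceeded the 2 WT-Veh mice by a median of 0.10 over the 34 genes (27 of 34 higher), and in litter 5 the 1 ASO-Veh mouse was below the 3 WT-Veh mice by a median of -0.31 (2 of 34 higher). Litter 1 holds WT-Veh mouse 62 and litter 5 holds WT-Veh mouse 64. Among grafted mice the ASO minus WT median was -0.02 in litter 4 and, with mouse 59 included, 0.13 in litter 6. In litter 3, the WT-NSC mouse exceeded the 2 ASO-Veh mice by a median of 0.05, with 21 of 34 genes higher and Foxj1 0.36 higher. The median over all genes lay between -0.0049 (litter 5) and 0.0082 (litter 3) in these within-litter comparisons. With litter as a fixed block, the ASO-NSC against ASO-Veh median was 0.13 and the WT-NSC against WT-Veh median 0.12. Both medians rest on litter 3 to link NSC with Veh mice, and there treatment and genotype differ together.

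Genes of the neighbouring tissues were read in the same arrays, and their part in the results above was not tested. A list of 23 other ependymal genes had its highest median in WT-Veh mouse 64 (0.34) and its lowest in WT-Veh mouse 62 (-0.35), as the cilia genes did. Its median difference was 0.17 in ASO-NSC against ASO-Veh mice (22 of 23 positive, 0 called) and 0.09 in WT-NSC against WT-Veh mice (18 of 23 positive, 0 called). Dynlrb2, a dynein light chain, and Odf3b had the differences 0.61 (adjusted p = 0.463) and 0.30 (adjusted p = 0.512) in ASO mice, and Stoml3 0.86 (adjusted p = 0.109) in WT mice.

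The choroid plexus, which hangs in the same ventricle, was marked by 17 genes. Ttr, its transthyretin gene, was at 9.69, 12.69, 12.55, 7.99 and 12.50 in ASO-NSC mice, against 8.35, 7.82, 11.89, 11.76 and 8.15 in ASO-Veh mice. It was at 9.34, 10.91, 12.69, 12.38 and 12.27 in WT-NSC mice, against 7.74, 8.24, 12.78, 7.96 and 11.75 in WT-Veh mice. WT-Veh mouse 64 had the highest Ttr and the highest cilia median, and ASO-NSC mouse 73 had the lowest of both among ASO-NSC mice. The match was partial, since ASO-Veh mice 46 and 47 had Ttr at 11.89 and 11.76 with cilia medians of -0.10 and -0.16, and ASO-NSC mouse 56 had a cilia median of 0.15 with Ttr at 9.69. The median of the 17 choroid genes ran from -0.23 to 0.36 in ASO-NSC, -0.15 to 0.06 in ASO-Veh, -0.31 to 0.36 in WT-NSC and -0.25 to 0.42 in WT-Veh mice. Of the other defining markers, Folr1 lay between 6.04 and 6.66 and Otx2 between 5.05 and 7.32, with Otx2 lowest in WT-Veh mouse 62 and highest in WT-Veh mouse 64. None of the 17 genes passed the test in any comparison.

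**Figure D5:**
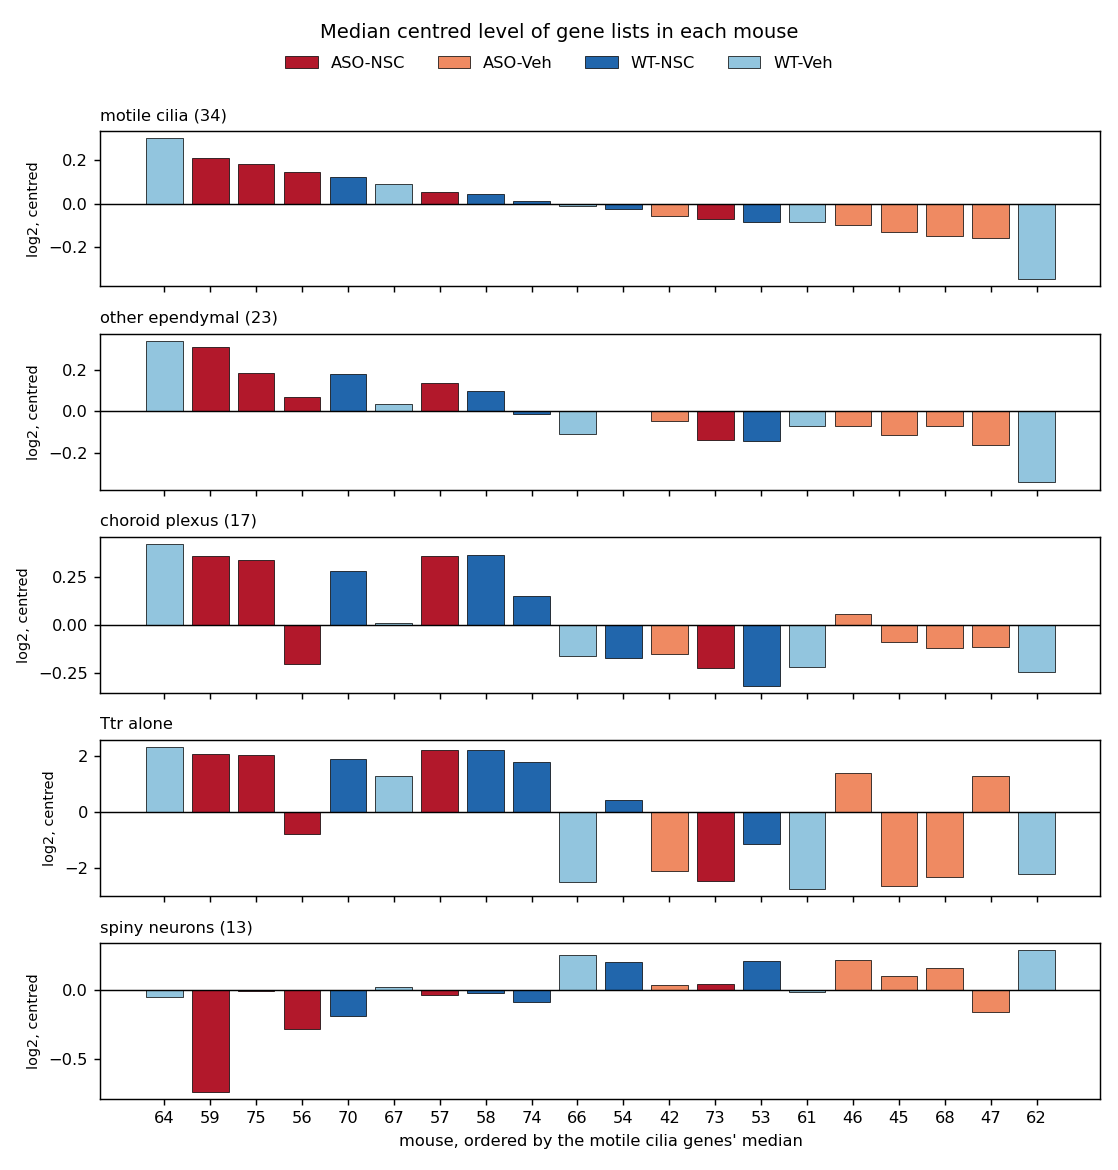
Median log2 level of 4 gene lists, and of Ttr alone, relative to the mean over 20 mice (bars, 1 per mouse, coloured by group), with mice ordered by the motile cilia genes. The other ependymal genes also run between mouse 64 (0.34) and mouse 62 (-0.35), Ttr is also high in ASO-Veh mice 46 and 47, and the spiny neuron genes are lowest in ASO-NSC mouse 59 (-0.74).

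Genes for the assembly and transport of cilia spread less than the cilia genes themselves. The 23 measured genes of intraflagellar transport and the BBSome, which serve all cilia, had medians per mouse between -0.08 and 0.05, and differences with a median of 0.03 (ASO) and 0.04 (WT). The 16 regulators of multiciliated cells, among them Gmnc, Mcidas, Myb and the RFX factors, had 8 positive differences in ASO-NSC against ASO-Veh mice with a median of 0.01, and 11 with a median of 0.02 in the WT mice. The 17 further dynein arm, docking and assembly genes had medians of 0.06 and -0.01, with Ccdc65 at 0.33 (adjusted p = 0.483) and Ttc25 at 0.22 (adjusted p = 0.534) in ASO mice. None of the genes in these 3 lists passed the adjusted threshold in either comparison. In the same ASO comparison, spiny neuron genes had negative differences in 13 of 13 cases (median -0.16) and myelin genes positive ones in 10 of 10 (median 0.15), 0 of them called. In WT-NSC against WT-Veh mice, spiny neuron genes had 9 of 13 negative differences (median -0.06) and myelin genes again 10 of 10 positive ones (median 0.16), 0 called. Subventricular zone genes had a median of 0.06 in ASO mice and 0.13 in WT mice, where Top2a, a gene of dividing cells, was the 1 gene called (0.50, adjusted p = 0.027). Medians of lateral septum and cortical neuron genes were 0.04 and -0.09 in ASO-NSC against ASO-Veh mice, and 0.07 and 0.15 in WT-NSC against WT-Veh mice.

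Promoters of the cilia genes were read from RefSeq (GRCm38.p6) as 250 bases before to 50 after the start of 1 transcript per gene, and 31 of the 34 measured genes had an entry. The X-box is the DNA element that RFX factors bind, made of a pair of inverted GTTGCC-like elements up to 3 bases apart. GTTGCC itself, on either strand, occurred in 14 of 31 cilia promoters (45.2 percent) and in 12.7 percent of 27025 promoters of all genes. The whole X-box occurred in 7 of 31 (22.6 percent) and in 1.27 percent of all promoters. The whole X-box was searched only after the promoters had been seen. It was found in Spag16, Tekt2, Dnah6, Lrrc23, Hydin, Cfap44 and Tekt4. The forkhead cores TGTTTAC and TGTTTGT, read by Foxj1-like factors, occurred on either strand in 4 of 31 (12.9 percent), Mlf1, Iqub, Ak7 and Cfap43, and in 9.87 percent of all promoters. A match describes letters in the window and not a bound site.

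The promoters of 7 genes are shown, those of Rsph9, Dnah11, Dnah2, Dnah6 and Cdhr3 because they had the largest statistics in NSC against Veh mice among genes with an entry, and those of Hydin and Tekt4, chosen after the motifs were seen, because of their X-box. Capitals mark a whole X-box or GTTGCC read on either strand, which overlap in Hydin, and positions count from the start base as 0.
Rsph9: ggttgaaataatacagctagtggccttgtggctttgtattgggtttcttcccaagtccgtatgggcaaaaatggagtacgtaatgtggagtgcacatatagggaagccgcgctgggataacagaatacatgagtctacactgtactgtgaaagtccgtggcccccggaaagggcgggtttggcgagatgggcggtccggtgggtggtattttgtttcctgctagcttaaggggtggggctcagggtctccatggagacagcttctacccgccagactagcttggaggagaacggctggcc
Dnah11: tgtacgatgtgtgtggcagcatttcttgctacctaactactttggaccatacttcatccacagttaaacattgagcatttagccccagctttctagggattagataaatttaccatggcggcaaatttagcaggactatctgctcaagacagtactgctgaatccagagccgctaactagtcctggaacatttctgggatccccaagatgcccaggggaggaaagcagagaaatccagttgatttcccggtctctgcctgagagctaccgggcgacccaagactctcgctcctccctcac
Dnah2: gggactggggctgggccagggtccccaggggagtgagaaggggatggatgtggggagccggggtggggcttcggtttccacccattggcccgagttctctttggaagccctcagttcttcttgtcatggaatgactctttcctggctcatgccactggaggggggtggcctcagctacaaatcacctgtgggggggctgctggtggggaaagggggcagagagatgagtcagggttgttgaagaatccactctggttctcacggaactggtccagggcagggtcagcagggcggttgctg
Dnah6: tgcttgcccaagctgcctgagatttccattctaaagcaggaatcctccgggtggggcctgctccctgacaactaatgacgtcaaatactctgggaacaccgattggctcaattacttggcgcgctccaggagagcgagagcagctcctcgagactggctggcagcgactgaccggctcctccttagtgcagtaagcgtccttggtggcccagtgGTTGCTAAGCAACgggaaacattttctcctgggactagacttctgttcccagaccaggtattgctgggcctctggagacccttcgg
Cdhr3: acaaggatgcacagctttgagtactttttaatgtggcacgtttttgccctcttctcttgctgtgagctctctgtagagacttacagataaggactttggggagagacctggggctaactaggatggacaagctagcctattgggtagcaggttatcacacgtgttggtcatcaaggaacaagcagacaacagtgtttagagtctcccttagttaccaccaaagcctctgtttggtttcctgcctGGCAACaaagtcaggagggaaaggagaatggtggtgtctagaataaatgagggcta
Hydin: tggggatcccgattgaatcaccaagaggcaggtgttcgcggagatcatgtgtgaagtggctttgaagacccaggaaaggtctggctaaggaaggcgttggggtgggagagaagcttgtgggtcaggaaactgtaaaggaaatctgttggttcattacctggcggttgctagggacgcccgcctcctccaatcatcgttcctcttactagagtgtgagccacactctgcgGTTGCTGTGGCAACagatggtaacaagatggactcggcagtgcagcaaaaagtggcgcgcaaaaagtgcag
Tekt4: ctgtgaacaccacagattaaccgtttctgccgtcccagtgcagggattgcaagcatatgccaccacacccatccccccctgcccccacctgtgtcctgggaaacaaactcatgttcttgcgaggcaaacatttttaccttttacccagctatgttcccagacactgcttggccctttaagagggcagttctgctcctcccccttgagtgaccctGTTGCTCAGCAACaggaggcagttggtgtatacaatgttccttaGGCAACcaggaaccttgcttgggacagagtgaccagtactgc
The Dnah6 sequence is chr6:73221582-73221881 on the minus strand, with its X-box starting 36 bases before the start site, and the Cdhr3 sequence is chr12:33092826-33093125 on the minus strand, with GTTGCC reversed at 6 bases before it. The sequences of Rsph9 (chr17:46144151-46144450), Dnah11 (chr12:118198994-118199293) and Dnah2 (chr11:69549059-69549358), all on the minus strand, hold none of the motifs. These are 3 of the 5 genes with the largest statistics. The X-box of Hydin (chr8:110266727-110267026, plus strand) starts 21 bases and that of Tekt4 (chr17:25471340-25471639, plus strand) 36 bases before the start. The start used for Tekt4 lies inside the span of the gene, which begins at position 25454549. The start used for Dnah6 also lies inside its gene, which begins at position 73222227 on the minus strand. Those of Cdhr3, Rsph9 and Hydin lie inside too, much nearer the first base of the gene.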

How the data were processed

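The authors processed 20 arrays of mouse striatum with RMA in oligo (background correction, normalization and core summarization) and deposited 1 log2 intensity per transcript cluster and mouse. The precision is set by the number of mice, since arrays have no read depth. Groups, litter, sex and RNA integrity came from the labels, each mouse being 1 replicate. Of 41345 transcript clusters, 23521 named 1 symbol, giving 22180 genes, and the row with the highest interquartile range was kept per gene. The linear models of limma 3.58.1 (R 4.3.3) were fitted to 19 arrays, without ASO-NSC mouse 59, with a coefficient per group and for labelled sex, two-sided, at an adjusted p of 0.05 (Benjamini-Hochberg). Lists were described by counts and medians with Python 3.11.15 and pandas 2.3.3, and the code was tested on simulated data. The genes and lists were chosen with earlier results of these data known. Values were given in full for Foxj1, Spef2 and Cdhr3, the 5 genes with the largest absolute moderated t in each of 5 comparisons, and the dynein heavy chains with the highest and lowest level. Genes whose groups do not overlap and the promoters of Hydin and Tekt4 were named after their values were seen. Labelled sex was kept in the main fit although the sex genes contradicted it for 5 arrays. Alternatives were other arrays, covariates (among them sex read from Xist and Y-linked genes), litter blocks, priors, probe set summaries, filters, centring, and leaving out each mouse.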

Additional observations from a re-analysis of the deposited data

Results flagged for a closer look

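In groups of 5 mice, 5 values stood farther from the rest of their group than Dixon's limit for 5 samples allows (a gap over 0.71 of the range), out of 144 groups of 5 examined, and chance gives about 1 in 20. Ak7 in ASO-Veh mouse 47 was at 6.56, with the other ASO-Veh mice between 6.89 and 6.90 (0.984 of the range). Cfap46 in WT-Veh mouse 62 was at 6.07, with the others between 6.84 and 6.93 (0.893), and Cfap46 in ASO-Veh mouse 68 was at 6.34, with the others between 6.71 and 6.85 (0.742). Cfap126 in ASO-Veh mouse 68 was at 5.86, above the others at 5.47 to 5.57 (0.732), and Cfap52 in ASO-NSC mouse 73 was at 6.98, below the others at 7.36 to 7.51 (0.715).

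For Tekt4, every ASO-NSC mouse was above the ASO-Veh mean and every WT-NSC mouse below the WT-Veh mean, and the mean effects differed by 0.28 (0.278) over 20 arrays. The limma interaction of Tekt4 had an adjusted p of 1. Tekt4 was found by looking through the cilia genes for this pattern or its reverse, and its share over all genes was not counted.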

How the results depend on the processing

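None of the 34 genes passed the adjusted threshold in any comparison under the 33 alternatives, of which the fit of all 20 arrays with no sex term and the fit without WT-Veh mice 62 and 64 were chosen after seeing the data. The lowest adjusted p of a cilia gene over all of them was 0.0647. With 1 mouse left out, the median over the genes ran from 0.16 to 0.25 in ASO-NSC against ASO-Veh, -0.06 to 0.11 in WT-NSC against WT-Veh, 0.08 to 0.17 averaged over genotypes, -0.19 to -0.02 in ASO-Veh against WT-Veh and 0.01 to 0.09 in ASO-NSC against WT-NSC mice. Under the other alternatives the median ran from 0.13 to 0.25, -0.09 to 0.12 and 0.02 to 0.15 in the first 3 of these comparisons. It ran from -0.25 to -0.01 in ASO-Veh against WT-Veh and 0.02 to 0.10 in ASO-NSC against WT-NSC mice. The ASO-NSC against ASO-Veh median was 0.13 with litter as a fixed block. This block links NSC with Veh mice through 1 NSC array of litter 3, a WT mouse beside ASO-Veh mice. The cause of the difference from the main fit was not tested. Without the 5 arrays whose sex genes differ from the label, the WT-NSC against WT-Veh median was -0.09, the ASO-Veh against WT-Veh median -0.25, the averaged median 0.02 and the ASO-NSC against WT-NSC median 0.02. The genes at an unadjusted p under 0.05 were then 16 in ASO-Veh against WT-Veh mice (5.54 percent of all genes) and 9 in the interaction (4.53 percent). The ASO-NSC against ASO-Veh comparison had 14 such genes when fitted on its own mice (9.84 percent of all genes), 9 with centred arrays (10.3 percent) and 0 with the litter block (5.09 percent).

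Of 31 results for named genes, 6 turned in direction under some alternative, none of them past the threshold. In WT-NSC against WT-Veh mice Foxj1 was 0.41 with litter as a fixed block, 0.0145 with arrays centred on their median and 0.0086 without WT-Veh mice 62 and 64, and -0.13 to 0.10 with 1 mouse left out. Spef2 was 0.0755, 0.0204 and 0.0099 under the same settings, and -0.0872 to 0.0671 with 1 mouse left out. Cdhr3 was -0.0279 without the 5 arrays whose sex genes differ, and Dnah2 0.24 with the litter block. Averaged over genotypes Dnah2 was 0.21 with that block. Cdhr3 in ASO-Veh against WT-Veh mice was 0.0937 with the block and -0.349 to 0.0392 with 1 mouse left out.

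No paired analysis was possible because the groups share no replicate numbers, each mouse having its own. Litters that groups share entered as a block and in within-litter differences. Each p-value sets a group difference against the spread between these mice, shared by all groups. Litter was not a term in the main fit.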
